A study of Mus musculus with 24 samples.

Results

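The comparison set CT26 cells taken back out of tumors against the same cells grown in a dish. It used 9 of the 24 libraries of the series, chosen by their labels: 6 libraries of purified tumor cells and 3 libraries of cultured cells. CT26 is a mouse colon carcinoma cell line that grows in BALB/c mice. The study made a Sun1 knockout line (KO) and 2 wild-type control lines (Control1 and Control2). Sun1 encodes an inner nuclear membrane protein of the LINC complex, which joins the nuclear lamina to the cytoskeleton. For the purified cells, 1000000 cells of a line were injected under the skin of the right flank of BALB/c mice, tumors were taken at day 14 and made into single cells, and tumor cells were isolated with a mouse tumor cell isolation kit, with 2 libraries of KO, 2 of Control1 and 2 of Control2. For the cultured cells, each line was grown in RPMI medium with serum and gave 1 library. Another 15 libraries of whole tumors (7 KO and 8 Control1) serve here as a guide to host RNA and were not compared.

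Messenger RNA was sequenced in all of them. The 6 purified libraries held between 17068356 and 22593612 counts, the 3 cultured libraries between 18832201 and 20716917, and the whole tumors between 14140769 and 24651279, over 35976 genes. The labels do not say whether the 2 purified libraries of a line came from separate mice, so the p-values measure the spread between these libraries. Growth in a mouse goes together with dissociation, purification and any difference in sequencing run, and these cannot be told apart. Levels are counts per 1000000 counts (CPM) after TMM scaling, a correction for RNA composition. Changes are log2 fold changes of purified over cultured cells with the line as a block, given with a standard error (SE). The SE was not estimated directly. It is the size of the change divided by the square root of its edgeR quasi-likelihood F statistic. It is approximate, most of all for genes near 0 in culture. A gene is called at an edgeR quasi-likelihood p of at most 0.05 after Benjamini-Hochberg adjustment over all 12651 genes tested. In bulk RNA a larger share of cells with a transcript and more transcript per cell cannot be told apart.

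Interferon gamma, a cytokine of activated T and natural killer cells, acts on genes that carry a gamma-activated site or an interferon-stimulated response element. Its targets include guanylate-binding proteins, immunity-related GTPases, the immunoproteasome and the molecules that load and carry peptides on MHC class I. Cells in a dish meet serum growth factors, a stiff surface and abundant nutrients, while cells in a tumor meet host cells, deposited matrix and uneven supply of oxygen and amino acids. Early genes such as Fos and Cyr61 answer serum and mechanical signals, and the factor Atf4 raises genes of amino acid supply through an amino acid response element.

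The stretches printed here are the promoter segments of genes on which the interferon and amino acid results turn. They come from the RefSeq table of build GRCm38.p6, the mouse build that the submitters' processing notes name as mm10. Each runs 5′ to 3′ on the gene's strand, upstream of a RefSeq start. For Ifit3 and Slc7a11 that start lies inside the gene's full span, and so does the printed stretch. Capitals mark the motif, which was searched as GAAANNGAAA on both strands. Gbp2, Gbp5 and Gbp7 are guanylate-binding proteins, Igtp is an immunity-related GTPase, Socs1 is the feedback inhibitor of the interferon receptor kinases, B2m and H2-T22 are chains of MHC class I molecules, and Ifit3 is an antiviral gene. Where 2 motifs overlap, as in Socs1, the capitals run through both.
Gbp2 (chr3:142620564-142620653, plus strand): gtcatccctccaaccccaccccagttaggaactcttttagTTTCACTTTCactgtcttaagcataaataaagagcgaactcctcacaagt
Gbp5 (chr3:142496729-142496818, plus strand): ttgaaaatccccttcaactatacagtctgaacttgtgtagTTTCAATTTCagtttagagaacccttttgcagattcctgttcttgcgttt
Gbp7 (chr3:142530243-142530332, plus strand): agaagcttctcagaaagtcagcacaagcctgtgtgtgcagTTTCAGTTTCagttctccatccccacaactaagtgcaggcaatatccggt
Igtp (chr11:58199482-58199555, plus strand): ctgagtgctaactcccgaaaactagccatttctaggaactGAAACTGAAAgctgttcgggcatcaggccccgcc
Socs1 (chr16:10785570-10785659, minus strand): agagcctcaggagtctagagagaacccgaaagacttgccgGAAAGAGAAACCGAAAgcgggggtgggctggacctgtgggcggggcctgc
B2m (chr2:122147508-122147597, plus strand): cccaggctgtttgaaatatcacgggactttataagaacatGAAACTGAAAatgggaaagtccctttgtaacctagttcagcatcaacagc
H2-T22 (chr17:36042884-36042973, minus strand): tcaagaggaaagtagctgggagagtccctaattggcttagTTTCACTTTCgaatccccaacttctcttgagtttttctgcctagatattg
Ifit3 (chr19:34583333-34583422, plus strand): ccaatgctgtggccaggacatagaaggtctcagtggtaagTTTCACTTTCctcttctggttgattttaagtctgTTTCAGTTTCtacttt

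The other set shows the gamma-activated site TTCNNNGAA in Irf1, a transcription factor induced by interferon gamma, and the amino acid response element TGATGNAA in Asns (asparagine synthetase), Chac1 (a glutathione-degrading enzyme) and Slc7a11 (the cystine transporter), again in capitals and searched on both strands.
Irf1 (chr11:53769884-53769972, plus strand): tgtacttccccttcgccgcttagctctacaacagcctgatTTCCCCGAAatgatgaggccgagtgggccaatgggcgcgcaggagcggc
Asns (chr6:7693210-7693272, minus strand): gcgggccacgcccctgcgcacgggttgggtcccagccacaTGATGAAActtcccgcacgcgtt
Chac1 (chr2:119351009-119351096, plus strand): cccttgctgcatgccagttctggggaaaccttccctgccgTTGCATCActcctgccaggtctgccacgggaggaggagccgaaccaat
Slc7a11 (chr3:50443632-50443719, minus strand): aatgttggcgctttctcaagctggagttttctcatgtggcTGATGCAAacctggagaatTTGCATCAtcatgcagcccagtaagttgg
A match describes letters in the window from 250 bases before to 50 bases after the start and is not a measured binding site. The table matched 9483 of the tested genes, and the response element was in 3.95% of them, the gamma-activated site in 8.55% and the amino acid element in 2.75%. Over all 32851 windows the shares were 3.44%, 8.3% and 3.97%. Of the list of interferon gamma-induced genes, 11 of 17 matched genes held the response element and 9 of 17 the gamma-activated site. Of the MHC class I list 5 of 20 held the response element, of the type I interferon list 12 of 21, and of the amino acid list 8 of 22 held the amino acid element. Other motifs were searched too. The NF-kappaB site was in 4 of 14 NF-kappaB targets and 2 of 20 MHC class I genes, beside 2.17% of tested genes. The sterol regulatory element was in 0 of 16 cholesterol synthesis genes, beside 0.0422% of tested genes.

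Sun1 (chr5:139200564-139249839) was measured first as a check of the labels. It had 50.9 and 55.5 CPM in purified KO, 174 and 214 in purified Control1 and 167 and 165 in purified Control2 libraries, against 33.7, 122 and 110 CPM in cultured KO, Control1 and Control2 cells. The KO libraries were lowest in each setting, and transcript remained in them. Sun1 itself was higher in purified cells, with a log2 fold change of 0.65 ± 0.08 (SE; adjusted p = 6.24e-05), and the change was 0.68 in KO, 0.67 in Control1 and 0.61 in Control2. Without the line as a block Sun1 and Sun2 were not called. With the block its partners moved too: Sun2, the other SUN-domain protein, changed by 0.57 ± 0.08, Syne3 (nesprin 3, a partner in the outer nuclear membrane) by 0.81 ± 0.13, and Lmna (lamins A and C) by 0.87 ± 0.09. Of the 15 tested genes of the LINC complex and lamina, 7 were higher and 2 lower, with a median of 0.10. The lower members, Lbr (−0.34 ± 0.07) and Banf1 (−0.23 ± 0.09, adjusted p = 0.0491), were picked after their values were seen, and Banf1 lost its call when most single libraries were left out, with −0.15 without the cultured Control1 library.

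Across the transcriptome 2798 genes were higher in purified cells and 2710 were lower, which is 22.1% and 21.4% of those tested. The higher side held the larger changes: 1069 genes were called at least 2-fold higher (8.45%) and 327 at least 2-fold lower (2.58%). All 6 purified values lay above all 3 cultured values for 14.0% of tested genes and below them for 14.0%. The median log2 fold change over all tested genes was 0.0131. Of the called genes, 2738 of 2798 higher and 2660 of 2710 lower genes had the same direction in KO, Control1 and Control2. The calls rest on the mean change over these same lines, so this agreement is not a separate check. Over all tested genes the changes of 2 lines had a Pearson correlation of 0.659 to 0.673.

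**Figure D1:**
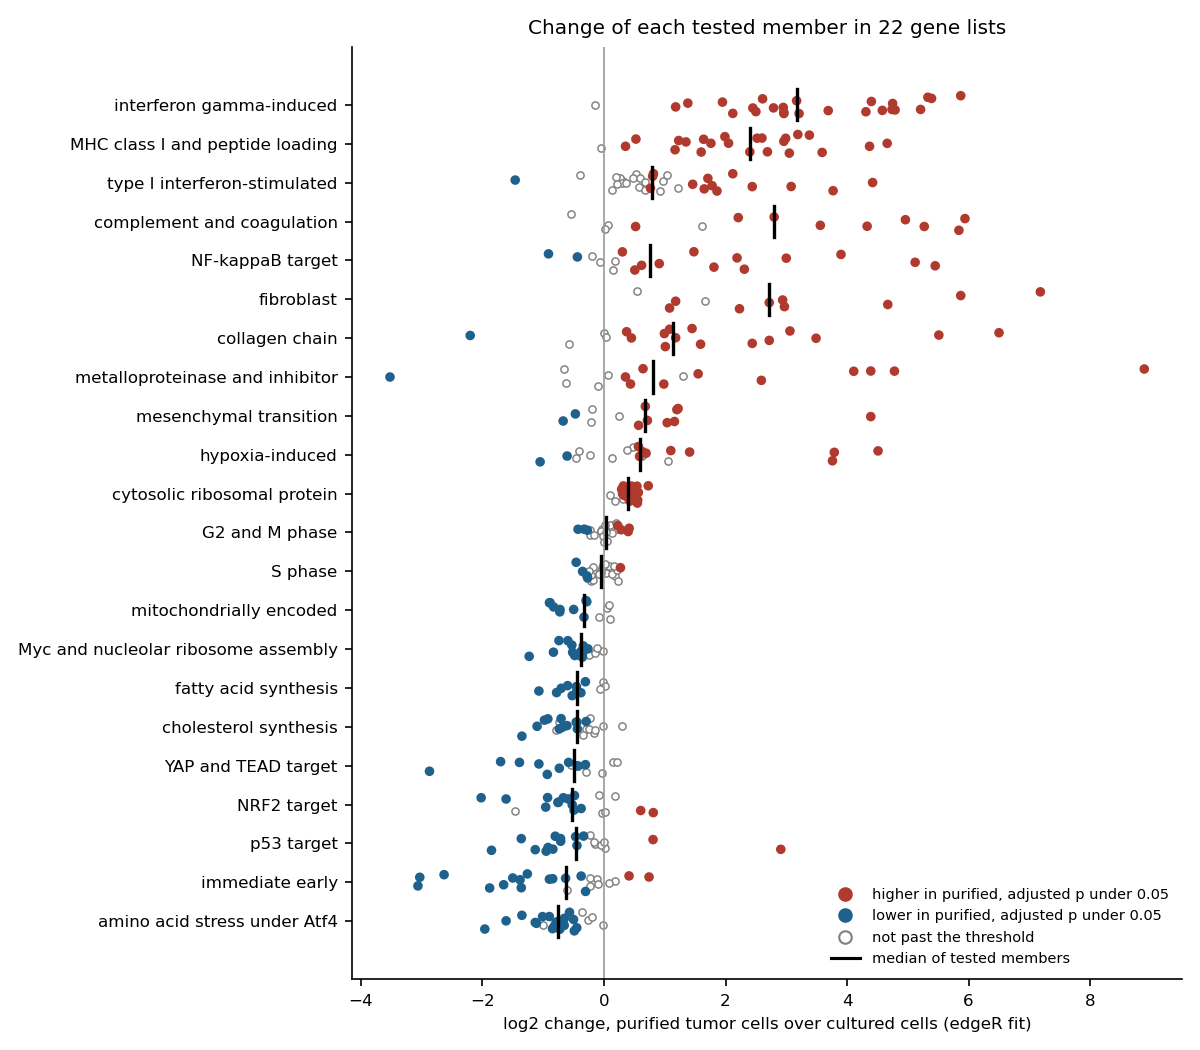
Log2 fold change of purified over cultured cells (horizontal axis) for each tested member of 22 gene lists, with 1 point per gene and a bar at each list's median. Interferon gamma-induced and MHC class I members lie to the right of 0 with medians of 3.17 and 2.40, and the amino acid, immediate early and NRF2 lists have medians below 0.

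The interferon gamma program was higher in tumor-grown cells. Of 25 tested interferon gamma-induced genes 24 were higher and none lower, with a median log2 fold change of 3.17, and of 23 tested genes of MHC class I and peptide loading 22 were higher and none lower, with a median of 2.40. Guanylate-binding proteins were among the genes with the widest change, and the class I heavy chain H2-D1 and its partner B2m were both higher in every purified library than in any cultured one.

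Gbp5 had 54.2 and 63.5 CPM in purified KO, 18.8 and 28.1 in purified Control1 and 34.5 and 29.7 in purified Control2 libraries, against 1.08, 0.932 and 0.671 CPM in cultured KO, Control1 and Control2 cells. Its log2 fold change was 5.39 ± 0.23 (SE; edgeR adjusted p = 1.24e-08). Gbp5 promotes inflammasome assembly, and its lowest purified library stood well above its highest cultured one. Gbp8, a relative, ranged between 2.82 and 11.8 CPM (median 4.67) in purified cells and between 0 and 0.11 CPM in cultured cells. In whole tumors Gbp8 stood at 14.7 to 40.2 CPM, and the part of host cells in its change was not tested. The cultured cells held 3 Gbp8 counts in all and the purified cells 686, a ratio of 112 in CPM with a 95% counting interval of 38.1 to 543. Reads of the guanylate-binding proteins can be shared between near-identical copies, so the split between family members is uncertain.

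Nlrc5, the transactivator of MHC class I genes, had 113 and 132 CPM in purified KO, 54.8 and 61.4 in purified Control1 and 47.5 and 41.3 in purified Control2 libraries, against 16.5, 9.87 and 3.77 CPM in cultured KO, Control1 and Control2 cells (log2 fold change 2.96 ± 0.16, adjusted p = 9.27e-08). H2-D1 ranged between 2040 and 3670 CPM (median 2590) in purified cells and between 317 and 667 CPM in cultured cells, a 6.06-fold change (2.60 ± 0.13, adjusted p = 3.47e-08). B2m ranged between 1390 and 2290 CPM (median 1730) in purified cells and between 355 and 655 CPM in cultured cells, a 3.96-fold change. These class I genes did not overlap between the settings. H2-T22, a nonclassical class I molecule, changed by 2.99 ± 0.14, and Calr, the chaperone calreticulin of the loading complex, by 0.53 ± 0.08. The loading chaperone Canx, named after its values were seen, did not pass the test (−0.04 ± 0.07, adjusted p = 0.677). H2 genes have near-identical copies, and RSEM divides reads that match several of them.

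Outside the rule that chose the named genes, several members were picked after their values were seen because their roles are well known. Psmb9, a catalytic subunit of the immunoproteasome, ranged between 50.5 and 164 CPM in purified cells and between 2.63 and 7.39 CPM in cultured cells (4.66 ± 0.31, adjusted p = 2.44e-05). Gbp2, Gbp7 and Igtp changed by 4.74 ± 0.62, 3.69 ± 0.51 and 3.17 ± 0.58, and Irf1 by 2.50 ± 0.31. Cd274, which encodes the checkpoint ligand PD-L1, had 56.0 and 66.3 CPM in purified KO, 12.9 and 21.5 in purified Control1 and 31.9 and 35.4 in purified Control2 libraries, against 6.95, 6.31 and 3.46 CPM in cultured KO, Control1 and Control2 cells. That is a 6.10-fold difference with an adjusted p of 0.00189. Socs1 changed by 1.95 ± 0.17. Irf8, which is also used by myeloid cells, was the only member of the interferon gamma-induced list without a call (−0.15 ± 0.42).

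**Figure D2:**
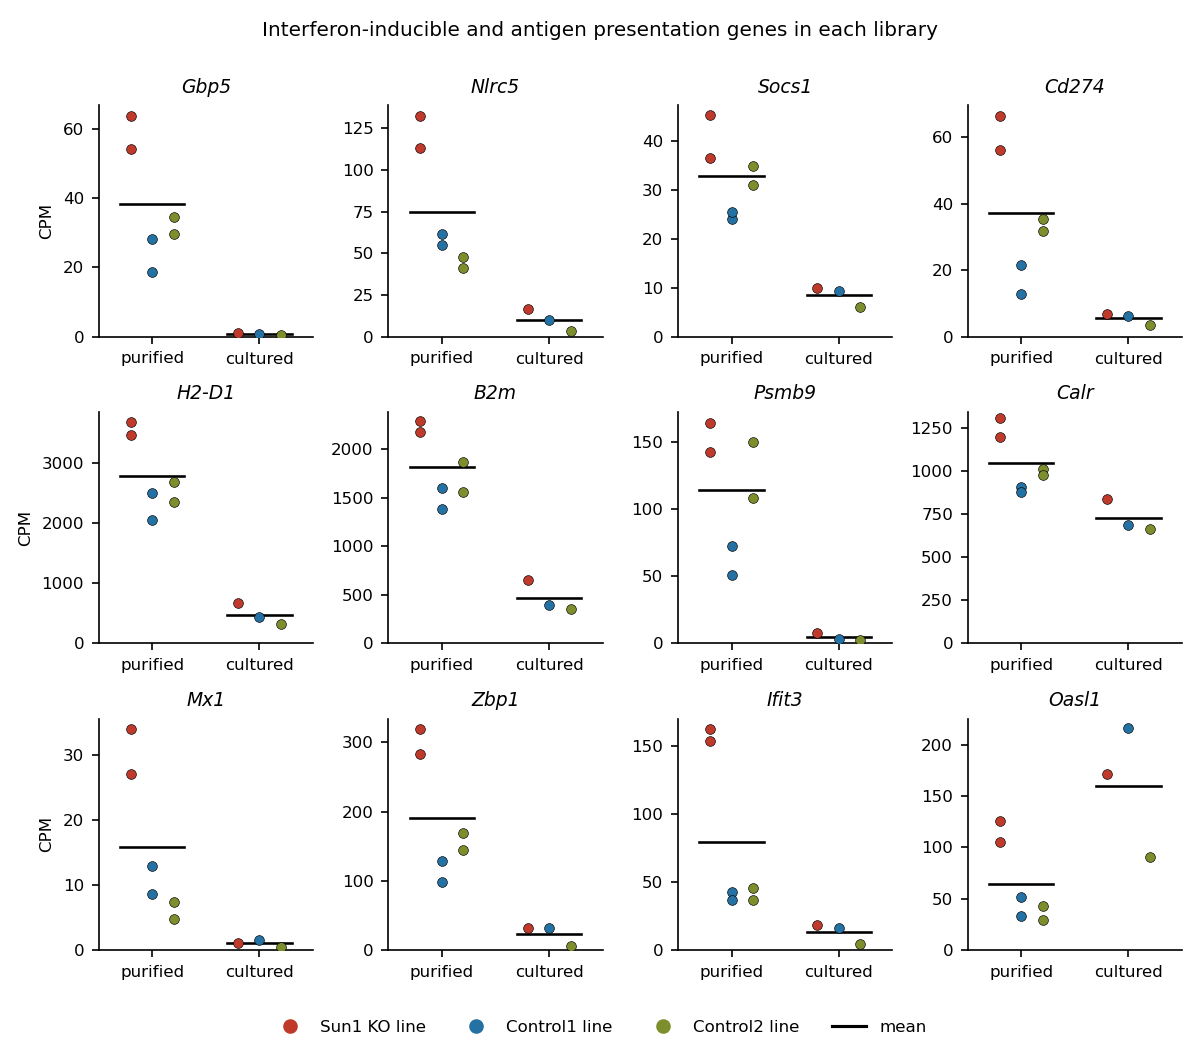
CPM (vertical axes, starting at 0) of 12 interferon and MHC class I genes in the 6 purified and 3 cultured libraries, with 1 point per library colored by line and a bar at each mean. For H2-D1 the purified libraries sit between 2040 and 3670 CPM and the cultured libraries between 317 and 667 CPM, and Oasl1 is the gene whose purified mean lies below its cultured mean.

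MHC class II genes, which in mice are mainly genes of antigen-presenting cells but are also induced by interferon gamma in other cells, were detected at low levels. Of 8 listed members 5 passed the count filter, and all 5 were higher, with a median of 3.69. A gene near 0 in culture could pass that filter only through the purified libraries, so the filter favored this direction. H2-Ab1 ranged between 0.416 and 1.63 CPM in purified cells and between 0 and 0.11 CPM in cultured cells, and between 27.2 and 165 CPM in whole tumors. Ciita, the class II transactivator, had 181 counts in the purified and 3 in the cultured libraries, a ratio of 29.5 (95% counting interval 9.93 to 144). Cd74, the invariant chain (picked after its values were seen), ranged between 4.0 and 19.3 CPM in purified cells and between 0 and 1.92 CPM in cultured cells, and its log2 fold change of 3.77 ± 0.88 ranged between 3.09 without the cultured Control2 library and 4.68 without the cultured KO library. Each of these 5 genes had a tumor mean at least 4 times that of the purified cells, and the part of host cells in their change was not tested.

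The type I interferon genes gave a split picture. Of 32 tested members 13 were higher, 1 was lower and 18 were not called, with a median of 0.78. Mx1, an antiviral GTPase, ranged between 4.74 and 34.0 CPM (median 10.8) in purified cells and between 0.516 and 1.59 CPM in cultured cells (3.77 ± 0.39, adjusted p = 6.23e-05). Ifi27l2a, an interferon-induced mitochondrial protein with a close paralog, changed by 4.42 ± 0.18. Oasl1, an oligoadenylate synthetase-like protein and the member that fell (named after its values were seen), had 126 and 105 CPM in purified KO, 51.2 and 33.3 in purified Control1 and 29.2 and 42.3 in purified Control2 libraries, against 171, 216 and 90.7 CPM in cultured KO, Control1 and Control2 cells (−1.46 ± 0.34, adjusted p = 0.0157). The libraries of Oasl1 overlapped between the settings, although each line moved down, and the call was lost without the cultured Control2 library (adjusted p = 0.0604).

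The count of higher type I genes depended on single cultured libraries: it was 27 without the cultured Control1 library and 6 without the cultured KO library. The median change over these 32 genes was 0.96 in KO, 0.06 in Control1 and 1.76 in Control2, and for 30 of the 32 the lowest cultured value was in Control2. The test of the difference itself, Control2 minus Control1, called 119 genes (0.941% of those tested), 80 with a positive and 39 with a negative difference, and 25 of the 32 type I genes were among them. Of the 80 genes with a positive difference, 76 had their lowest cultured value in Control2. This was not particular to the type I list. Cultured Control2 was also lowest for 20 of 25 interferon gamma-induced and 18 of 23 MHC class I genes. The same test called 5 and 4 of these. Median changes in KO, Control1 and Control2 were 3.17, 2.56 and 4.46 for the interferon gamma-induced list and 2.36, 1.88 and 2.76 for the MHC class I list.

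Zbp1, a sensor of Z-form nucleic acids, differed in that test. It had 169 and 144 CPM in purified Control2 libraries against 5.68 CPM in cultured Control2 cells, and 98.4 and 128 CPM in purified Control1 libraries against 31.6 CPM in cultured Control1 cells. The purified libraries of the control lines were close together and the cultured ones far apart, and the difference of the changes was 2.95 on the log2 scale. Gbp7 (2.51), Parp14 (2.01), Apol9b (1.88), Ifit3 (1.84), Stat2 (1.81) and Apol9a (1.73) also had positive differences, where Apol9a and Apol9b are near-identical lipid-binding proteins. Apol9a changed by 0.93 in Control2 and −0.80 in Control1. Each line in culture is 1 library, so a difference between lines and between dishes cannot be told apart.

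Complement and inflammatory genes were higher as well. Of 13 tested complement and coagulation genes 9 were higher and none lower (median 2.80). C3, the central complement component, had 42.5 and 39.1 CPM in purified KO, 25.4 and 51.0 in purified Control1 and 87.2 and 68.2 in purified Control2 libraries, against 0.838, 0.823 and 0.826 CPM in cultured KO, Control1 and Control2 cells (5.94 ± 0.34, adjusted p = 2.15e-06). The 3 cultured values of C3 were almost level. All purified values were higher, which the rule that chose C3 required. Cfb, complement factor B, changed by 5.27 ± 0.27, C1ra, a protease of the first complement complex, by 2.80 ± 0.16, and Plat, tissue plasminogen activator, by 2.21 ± 0.17. Without the cultured KO library the change of Cfb was 4.54. Cfb was at 6.47 to 49.9 CPM in purified cells and 65.4 to 233 CPM in whole tumors.

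Of 18 tested NF-kappaB targets 12 were higher and 2 lower (median 0.77). Traf1, a TNF receptor adaptor, ranged between 7.43 and 26.3 CPM in purified cells and between 1.63 and 2.48 CPM in cultured cells (3.00 ± 0.20). Vcam1, a leukocyte adhesion molecule, changed by 1.81 ± 0.11, Nfkbie, an NF-kappaB inhibitor, by 2.31 ± 0.15, and Fas, the death receptor, by 2.91 ± 0.32. The lower members were Bcl2l1, an anti-apoptotic gene (−0.91 ± 0.09), and Tnfaip2 (−0.44 ± 0.08), both named after their values were seen. Of 25 listed chemokine and cytokine genes 12 passed the count filter, and of these 8 were higher and 2 lower, with a median of 1.76. Members near 0 in culture, among them Cx3cl1 and Cxcl11, could pass only through the purified libraries, so the filter favored the higher direction. Ccl2, a monocyte attractant, ranged between 15.9 and 40.9 CPM in purified cells and between 0.361 and 1.15 CPM in cultured cells (5.45 ± 0.29, adjusted p = 1.53e-07). In whole tumors Ccl2 stood at 64.9 to 167 CPM. Cx3cl1 had 85 counts in purified and none in cultured cells, which makes it at least 13.8-fold higher against a floor of 3 counts over the cultured libraries. Cxcl11, an interferon-induced attractant of T cells, changed by 4.40 ± 0.59, and the alarmin Il33 by 2.07 ± 0.31. Cxcl11 was at 1.52 to 4.5 CPM in purified cells and 6.79 to 23.1 CPM in whole tumors. The lower genes, Csf1 (−0.42 ± 0.15, adjusted p = 0.043) and Lif (−0.66 ± 0.13), were picked after their values were seen, and Csf1 lost its call when most single libraries were left out, with −0.19 without the cultured Control1 library.

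The collagen chains Col6a3 and Col3a1, the matrix protease Mmp9 and the proteoglycan Bgn were higher in every purified library than in any cultured one. For Col6a3 and Mmp9 the rule that chose them required this. The 15 genes that led the higher side, by the rule that each be called, expressed and non-overlapping in the same direction in every line, were Ntn1, Mmp9, Medag, Lum, Eln, Gbp8, Islr, Col6a3, Mrgprf, Spon2, Aspn, Scara5, Aqp1, Lbp and C3. Lum, Aspn and Spon2 encode secreted matrix proteins, Eln is elastin, Aqp1 is a water channel and Lbp binds lipopolysaccharide. Of 18 collagen chain genes 14 were higher and 1 lower (median 1.13), of 14 genes of collagen processing 9 were higher and 1 lower (median 0.68), and of 22 matricellular and glycoprotein genes 11 were higher and 5 lower (median 0.57).

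Mmp9, gelatinase B, which cuts denatured collagen, had 9.32 and 15 CPM in purified KO, 34.4 and 43.6 in purified Control1 and 34.3 and 33.0 in purified Control2 libraries, against 0.0986, 0.0548 and 0 CPM in cultured KO, Control1 and Control2 cells. The cultured libraries held 3 Mmp9 counts together and the purified libraries 3268, a ratio of 532 (95% counting interval 182 to 2580). Purified KO cells had the lowest Mmp9 of the purified libraries, although the edgeR test of the KO difference in change did not call it (adjusted p = 0.49). Ntn1, the secreted guidance protein netrin 1, had between 2.98 and 12.1 CPM in purified cells and no count in cultured cells, and with 673 counts it was at least 110-fold higher. Mmp2, gelatinase A, changed by 4.39 ± 0.34, and the inhibitors Timp3 and Timp1 by 4.11 ± 0.52 and 0.99 ± 0.11. Without the cultured KO library Timp3 changed by 3.24. Timp3 was at 0.632 to 10.7 CPM in purified cells, with its highest values in KO, and at 20.9 to 39.4 CPM in whole tumors. The edgeR test of the KO difference in change did not call Timp3 (adjusted p = 0.894). Of 16 metalloproteinase and inhibitor genes 10 were higher and 1, the stromelysin Mmp10 (−3.52 ± 0.50, picked after its values were seen), was lower, with 15.1 CPM in the cultured KO library and 0.494 and 1.65 in the cultured control lines, and −2.21 without the cultured KO library.

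Col6a3, a chain of the beaded-filament collagen VI, had 178 and 301 CPM in purified KO, 323 and 323 in purified Control1 and 77.5 and 195 in purified Control2 libraries, against 1.92, 3.78 and 2.01 CPM in cultured KO, Control1 and Control2 cells (6.50 ± 0.50, adjusted p = 0.000142). Its partner Col6a1 changed by 3.49 ± 0.12, with 174 to 469 CPM in purified cells and 15.2 to 35.9 CPM in cultured cells. The fibrillar collagen Col3a1 ranged between 497 and 1450 CPM (median 927) in purified cells and between 79.7 and 201 CPM in cultured cells (2.72 ± 0.10, adjusted p = 3.76e-09). Col3a1 showed the lowest value in the Control2 line in both settings. Col1a2 and Col16a1 changed by 1.18 ± 0.09 and 1.59 ± 0.10. The anchoring collagen Col7a1, picked after its values were seen, was the lower chain, at 0.794 to 9.05 CPM in purified cells and 12.6 to 17.2 CPM in cultured cells (−2.20 ± 0.37).

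Lum, a small proteoglycan that binds collagen fibrils, and Eln had their highest purified levels in Control1, although the tests of the KO difference (adjusted p = 0.949 and 0.6) and of the control difference (0.738 and 0.877) called neither. Lum had 40.5 and 60.3 CPM in purified Control1 and 0.508 to 2.52 CPM in the other 4 purified libraries, against 0.0493 to 0.219 CPM in cultured cells, and its log2 fold change of 7.18 ± 0.62 was 4.67 without the cultured Control1 library and lost its call without the line block. Eln had 15.6 and 17.7 CPM in purified Control1 and 1.06 to 1.48 CPM in the other purified libraries, against 0 to 0.11 CPM in cultured cells. The ratio for Eln was 114 (95% counting interval 39 to 556, from 3 cultured counts). Medag ranged between 4.95 and 88.1 CPM (7.70 ± 0.76), and Lbp between 1.65 and 17.3 CPM (6.05 ± 0.54), both with the highest value in purified Control1. Cultured Lbp was 0.274 CPM in Control1 and 0 in KO and Control2, so its change rests on that 1 cultured library. The other leading genes were less uneven: Islr, a secreted leucine-rich repeat protein, ranged between 33.8 and 80.1 CPM in purified cells and between 0.148 and 0.932 CPM in cultured cells (6.61 ± 0.22, adjusted p = 1.88e-09). Aqp1 ranged between 686 and 1090 CPM in purified cells and between 8.58 and 20 CPM in cultured cells (6.05 ± 0.27).

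**Figure D3:**
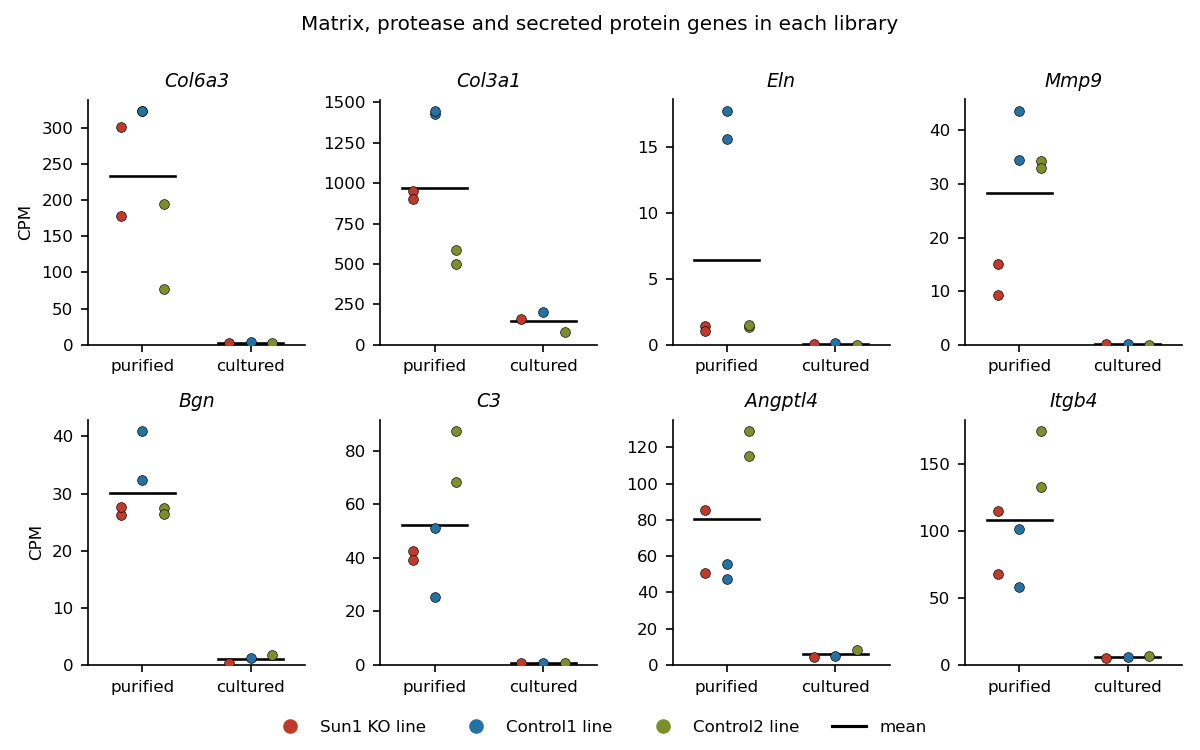
CPM (vertical axes, starting at 0) of 8 matrix, protease and secreted protein genes in the 6 purified and 3 cultured libraries, with 1 point per library colored by line and a bar at each mean. Cultured values of Col6a3, Eln, Mmp9 and C3 lie near the axis, and purified Control1 stands highest for Eln, with 15.6 and 17.7 CPM.

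Enzymes that modify collagen moved with it. Loxl3, a lysyl oxidase, changed by 2.07 ± 0.09, Tgm2, transglutaminase 2, by 3.47 ± 0.26, P4ha1, a prolyl hydroxylase, by 1.10 ± 0.15, and Plod2, a lysyl hydroxylase, by 0.74 ± 0.13. Loxl4 was the lower member (−0.42 ± 0.10, named after its values were seen). Among matricellular genes the proteoglycan Bgn ranged between 26.2 and 40.9 CPM in purified cells and between 0.394 and 1.65 CPM in cultured cells (4.84 ± 0.26), and Sparc changed by 1.22 ± 0.08. The lower count of this list was 3 without the cultured KO library. Of 13 mesenchymal transition genes 8 were higher and 2 lower (median 0.68), led by Prrx1, a mesenchymal transcription factor (1.16 ± 0.09), and S100a4 (1.20 ± 0.10). Of 8 epithelial genes 2 were higher and 3 lower, few genes beside the 22.1% higher and 21.4% lower of all genes. Of 11 integrins 3 were higher and 3 lower, near the shares of all genes. Itgb4, the hemidesmosome integrin, was at 58.1 to 175 CPM in purified cells and 5.23 to 6.76 CPM in cultured cells (4.15 ± 0.33). Itga3 changed by −0.53 ± 0.11.

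Fibroblasts express many of these matrix genes too, so their markers were read beside them. The fibroblast list summed to 3500 to 5960 CPM in purified cells, 1390 to 1830 CPM in cultured cells and 2210 to 3480 CPM in whole tumors. The purified sum was above that of every whole tumor, and the cultured sum was below. Of its 11 tested members 9 were higher and none lower (median 2.72). Members near 0 in culture, such as Lum (0.0493 to 0.219 CPM), could pass the count filter only through the purified libraries. Its first members Dcn and Pdgfra stood at 44.6 to 660 CPM and 31.6 to 100 CPM in purified cells, 1.58 to 4.11 CPM and 9.40 to 12.9 CPM in cultured cells, and 141 to 461 CPM and 29.6 to 66.9 CPM in whole tumors. Other genes of tumor fibroblasts, picked after their values were seen, were near 0: Postn (periostin) reached 0.474 CPM and Lox 0.371 CPM at most in purified cells, with means of 26.8 and 26.5 CPM in KO tumors and 8.42 and 10.6 CPM in Control1 tumors. Fbln1 reached 0.159 CPM in purified cells. Col5a2 and Col12a1 (picked after their values were seen) had no call, with 0.184 to 2.18 and 0.485 to 3.29 CPM in purified cells, 0.516 to 2.19 and 0.274 to 2.96 CPM in cultured cells, and 10.5 to 70.0 and 22 to 71.3 CPM in whole tumors. These low genes do not stand for the fibroblast list, of which 9 of 11 tested members were higher. The part of host fibroblasts in the purified libraries was not tested.

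The summed T cell, natural killer, macrophage and endothelial markers were lower in the purified cells than in whole tumors. The summed T cell markers were 0.6 to 3.27 CPM in purified cells, 0.62 to 1.32 CPM in cultured cells and 92.9 to 283 CPM in whole tumors, and Cd3e reached 0.182 CPM at most in purified cells. Natural killer markers summed to 0.924 to 4.89 CPM in purified, 0.826 to 2.02 CPM in cultured and 193 to 579 CPM in tumor libraries. Macrophage markers summed to 68.5 to 130 CPM in purified, 37.6 to 61.7 CPM in cultured and 1690 to 5840 CPM in tumor libraries, and 9 of 18 tested members were higher and none lower, with 5 higher without the cultured Control1 and 4 without the cultured Control2 library. Among the higher macrophage markers Ctss changed by 2.72 ± 0.57, Ccr2 by 2.57 ± 0.60, C1qc by 2.01 ± 0.49 and Cd14 by 0.82 ± 0.11. Ctss stood at 1.76 to 8.11 CPM in purified and 0.31 to 1.38 CPM in cultured libraries. Csf1r, the macrophage growth factor receptor, and Cd68 had no call. The part of host macrophages in these changes was not tested. Endothelial markers summed to 15.3 to 25.2 CPM in purified, 9.19 to 14.4 CPM in cultured and 105 to 201 CPM in tumor libraries. Of 14 listed members only 3 passed the count filter, and all 3 were higher. A gene near 0 in culture could pass only through the purified libraries. Among the 3 was Pecam1, from 51 purified and 3 cultured counts (ratio 8.31, 95% counting interval 2.69 to 41.6). Its call was lost without the cultured Control2 library. The pan-leukocyte list summed to 254 to 352 CPM in purified, 281 to 384 CPM in cultured and 792 to 1690 CPM in tumor libraries. Of its 10 tested members 4 were higher and none lower, beside 22.1% higher of all genes. Among the higher was Cd52, from 48 purified and 2 cultured counts. The list member Ptprc had no call, at 0.459 to 2.26 CPM in purified cells, 0.361 to 0.592 CPM in cultured cells and 72.2 to 241 CPM in whole tumors. The neutrophil list summed to 9.41 to 43.7 CPM in purified and at most 0.165 CPM in cultured libraries, almost all of it Mmp9, while its marker Ly6g (picked after its values were seen) was at 0 in all 9. Skeletal muscle markers summed to 1.94 to 42.3 CPM in purified, 1.65 to 8.28 CPM in cultured and 1.65 to 128 CPM in tumor libraries, with the highest purified value in 1 KO library.

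**Figure D4:**
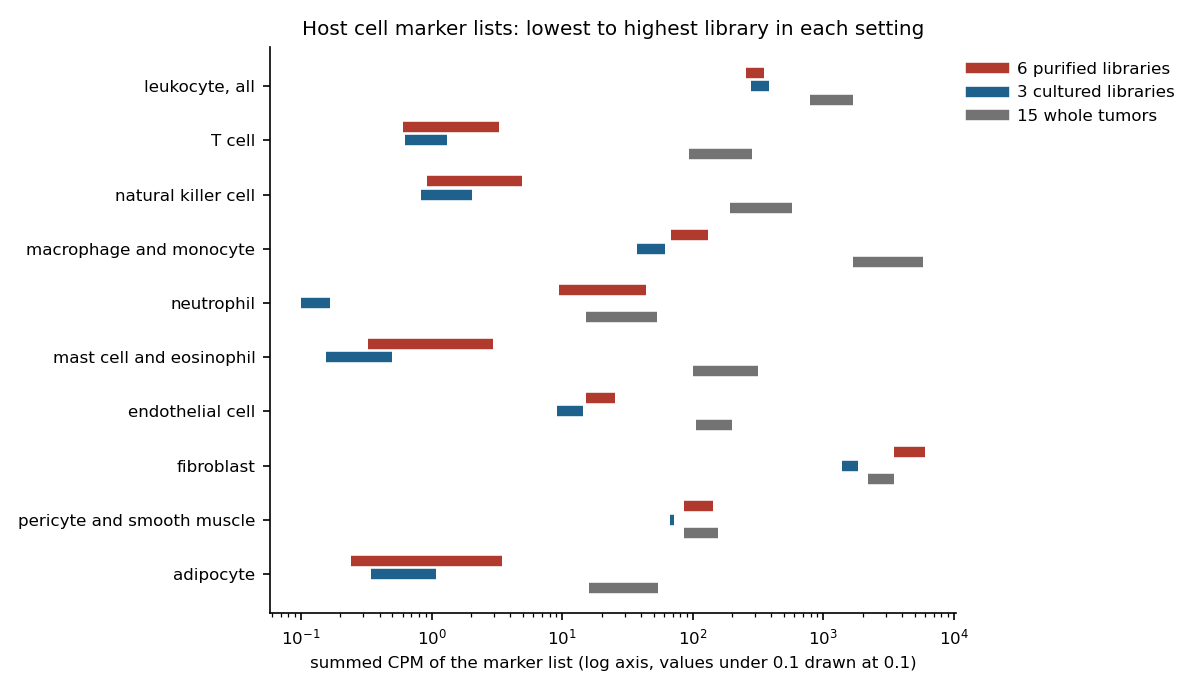
Range of the summed CPM (horizontal log axis) of 10 host marker lists in 6 purified libraries, 3 cultured libraries and 15 whole tumors, 1 bar per group. T cell sums are 0.6 to 3.27 CPM in purified cells and 92.9 to 283 CPM in whole tumors, while the fibroblast sums of purified cells lie above those of the whole tumors.

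Of the 1069 genes called at least 2-fold higher, 448 had a mean in whole tumors below that in purified cells and 111 had a whole-tumor mean at least 4 times the purified one, against 7095 and 400 of all 12651 tested. With those tumor-high genes left out of the test, 2738 genes were higher and 2618 lower. The part of host RNA in single genes was not tested.

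Most immediate early genes and most targets of the mechanical signaling factors YAP and TEAD were lower in tumor-grown cells. Of 23 immediate early genes 14 were lower and 2 higher (median −0.63), of 16 YAP and TEAD targets 10 were lower and none higher (median −0.50), of 15 TGF-beta targets 8 were lower and 3 higher (median −0.26), and of 15 ERK feedback genes 7 were lower and 3 higher (median −0.28). Id1, Id3 and Ptgs2 were among the 15 genes that led the lower side, chosen by the same rule as on the higher side. These were Csn3, Rnf128, Akr1c18, Fgd3, Fos, Rnd1, Ptgs2, Id3, Mfap3l, Cldn6, Fam110c, Cyr61, Id1, Mreg and Fosb.

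Fos, a subunit of the AP-1 factor, had 12 and 30.5 CPM in purified KO, 5.88 and 9.16 in purified Control1 and 14.0 and 17.7 in purified Control2 libraries, against 107, 168 and 78.5 CPM in cultured KO, Control1 and Control2 cells (−3.06 ± 0.50, adjusted p = 0.00371). No purified Fos value reached the lowest cultured one, which the rule that chose Fos required. Without the cultured Control1 library the change was −2.32. Fosb, its relative, changed by −2.63 ± 0.49, with −1.98 without that library. Ier2 and the nuclear receptor Nr4a1 changed by −1.26 ± 0.10 and −1.38 ± 0.11. Jun (0.74 ± 0.10) and Klf2 (0.41 ± 0.16), named after their values were seen, were the higher members, and Klf2 lost its call when most single libraries were left out, with 0.19 without the cultured Control2 library. Ptgs2, cyclooxygenase 2, ranged between 66.7 and 161 CPM (median 118) in purified cells and between 640 and 1370 CPM in cultured cells, 8.15-fold lower (adjusted p = 4.47e-07).

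Cyr61, a matricellular YAP target, had 75.4 and 88.6 CPM in purified KO, 37.1 and 31.7 in purified Control1 and 70.7 and 84.0 in purified Control2 libraries, against 549, 365 and 419 CPM in cultured KO, Control1 and Control2 cells (−2.87 ± 0.16). All purified values were under the cultured ones, which the rule that chose Cyr61 required. Ajuba, a LIM protein, Crim1, a secreted-factor antagonist, and Lats2, the kinase that inhibits YAP, changed by −1.07 ± 0.10, −1.39 ± 0.11 and −0.73 ± 0.07. Of the ERK feedback genes the phosphatases Dusp4 and Dusp5 changed by −0.76 ± 0.12 and −1.02 ± 0.16, and Dusp6 by 0.62 ± 0.11. Among TGF-beta targets the inhibitors Smad7, Skil and Pmepa1 changed by −0.87 ± 0.13, −0.74 ± 0.09 and −1.19 ± 0.11.

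The Id genes, inhibitors of basic helix-loop-helix factors and targets of BMP signaling, fell with them. Id3 had 6.10 and 6.34 CPM in purified KO, 2.24 and 3.55 in purified Control1 and 4.85 and 3.14 in purified Control2 libraries, against 15.6, 29.8 and 58.0 CPM in cultured KO, Control1 and Control2 cells (−2.93 ± 0.46, adjusted p = 0.00259). Id1 changed by −2.75 ± 0.49 and Id2 by −2.17 ± 0.17. The cultured KO library was the lowest of the cultured 3 for Id1 and Id3, and without it their changes were −3.45 and −3.62. With the purified libraries of a line summed neither was called. The change in KO minus the mean of the control lines was 2.40 for Id1 and 2.30 for Id3.

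That test of KO against the control lines called 25 genes, 13 with a positive and 12 with a negative difference (KO minus controls), which is 0.198% of those tested, and 1457 had an unadjusted p under 0.05. Ifi27, an interferon-induced protein, had 32.0 and 28.8 CPM in purified KO and 105 to 135 CPM in purified control libraries, against 90.8 CPM in cultured KO and 94.2 to 110 CPM in cultured control cells, a difference of −1.83. Glod5 differed by −3.75 and Gm8995 by 1.96. Znfx1, an antiviral RNA helicase, differed by 1.33 between KO and controls and by 0.98 between Control2 and Control1. The count was 9 without the second purified KO library and 131 without the second purified Control2 library. With 1 cultured library per line, a change of the knockout and a difference of 1 dish cannot be told apart.

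Genes of nutrient stress and biosynthesis were lower. Of 23 tested genes of amino acid stress under Atf4, 18 were lower and none higher (median −0.76). Asns, printed above with its element, had 197 and 192 CPM in purified KO, 250 and 204 in purified Control1 and 286 and 262 in purified Control2 libraries, against 392, 448 and 382 CPM in cultured KO, Control1 and Control2 cells (−0.82 ± 0.10, adjusted p = 5.30e-05). Mthfd2, of mitochondrial folate metabolism, ranged between 136 and 215 CPM in purified cells and between 361 and 436 CPM in cultured cells (−1.11 ± 0.12). Slc7a11 ranged between 9.25 and 15.9 CPM in purified cells and between 30.1 and 43.8 CPM in cultured cells (−1.61 ± 0.13, adjusted p = 1.24e-06). Chac1, Psph (serine synthesis) and Sesn2 (an inhibitor of mTORC1) changed by −1.35 ± 0.17, −1.01 ± 0.10 and −1.13 ± 0.11, and none of these genes overlapped between the settings. Asns and Chac1 were named after their values were seen.

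Of 19 targets of the oxidative stress factor NRF2, 12 were lower and 2 higher (median −0.52). Hmox1, heme oxygenase 1, ranged between 10.4 and 19.3 CPM (median 16.3) in purified cells and between 43.9 and 75.4 CPM in cultured cells, 4.05-fold lower (adjusted p = 2.46e-08), with −1.95 in KO, −2.01 in Control1 and −2.09 in Control2. Txnrd1 (thioredoxin reductase), Taldo1 (pentose phosphate pathway) and Me1 (malic enzyme) changed by −0.76 ± 0.08, −0.93 ± 0.09 and −0.52 ± 0.08. Of 20 p53 targets 12 were lower and 2 higher (median −0.46), with Mdm2, the ligase that degrades p53, at −0.95 ± 0.10, Plk2 at −1.13 ± 0.11 and Btg2 at −1.36 ± 0.16. Of 17 autophagy and lysosome genes 8 were lower and 2 higher, with 3 lower without the cultured Control2 library.

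Of 22 cholesterol synthesis genes 12 were lower and none higher (median −0.45), and of 12 fatty acid synthesis genes 9 were lower and none higher (median −0.45). Insig1, the sterol sensor's anchor, ranged between 42.2 and 138 CPM in purified cells and between 130 and 249 CPM in cultured cells (−0.98 ± 0.18, adjusted p = 0.00284), with 1 purified Control1 library inside the cultured range. Lss, Pmvk and Dhcr7, enzymes of sterol synthesis, changed by −0.92 ± 0.16, −1.35 ± 0.17 and −0.61 ± 0.13. The count of lower cholesterol genes was 6 without the cultured KO library and 6 without the cultured Control1 library. Scd1, Elovl6 and Fads2, which desaturate or lengthen fatty acids, changed by −0.70 ± 0.11, −0.78 ± 0.12 and −0.60 ± 0.10.

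Ribosome genes split by role. Of 18 genes of Myc-driven nucleolar ribosome assembly 14 were lower and none higher (median −0.38), while of 24 cytosolic ribosomal protein genes 21 were higher and none lower (median 0.40). Odc1, ornithine decarboxylase and a Myc target, ranged between 435 and 600 CPM in purified cells and between 1010 and 1630 CPM in cultured cells (−1.23 ± 0.09, adjusted p = 3.87e-07). Polr1b (RNA polymerase I), Srm (spermidine synthase) and Wdr43 (a nucleolar factor) changed by −0.83 ± 0.10, −0.74 ± 0.09 and −0.49 ± 0.07. Rps20 ranged between 606 and 818 CPM in purified cells and between 403 and 560 CPM in cultured cells (0.55 ± 0.09, adjusted p = 0.000339). The lowest cultured value was in Control2 for 23 of the 24 ribosomal protein genes, and 12 were called higher without that library.

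**Figure D5:**
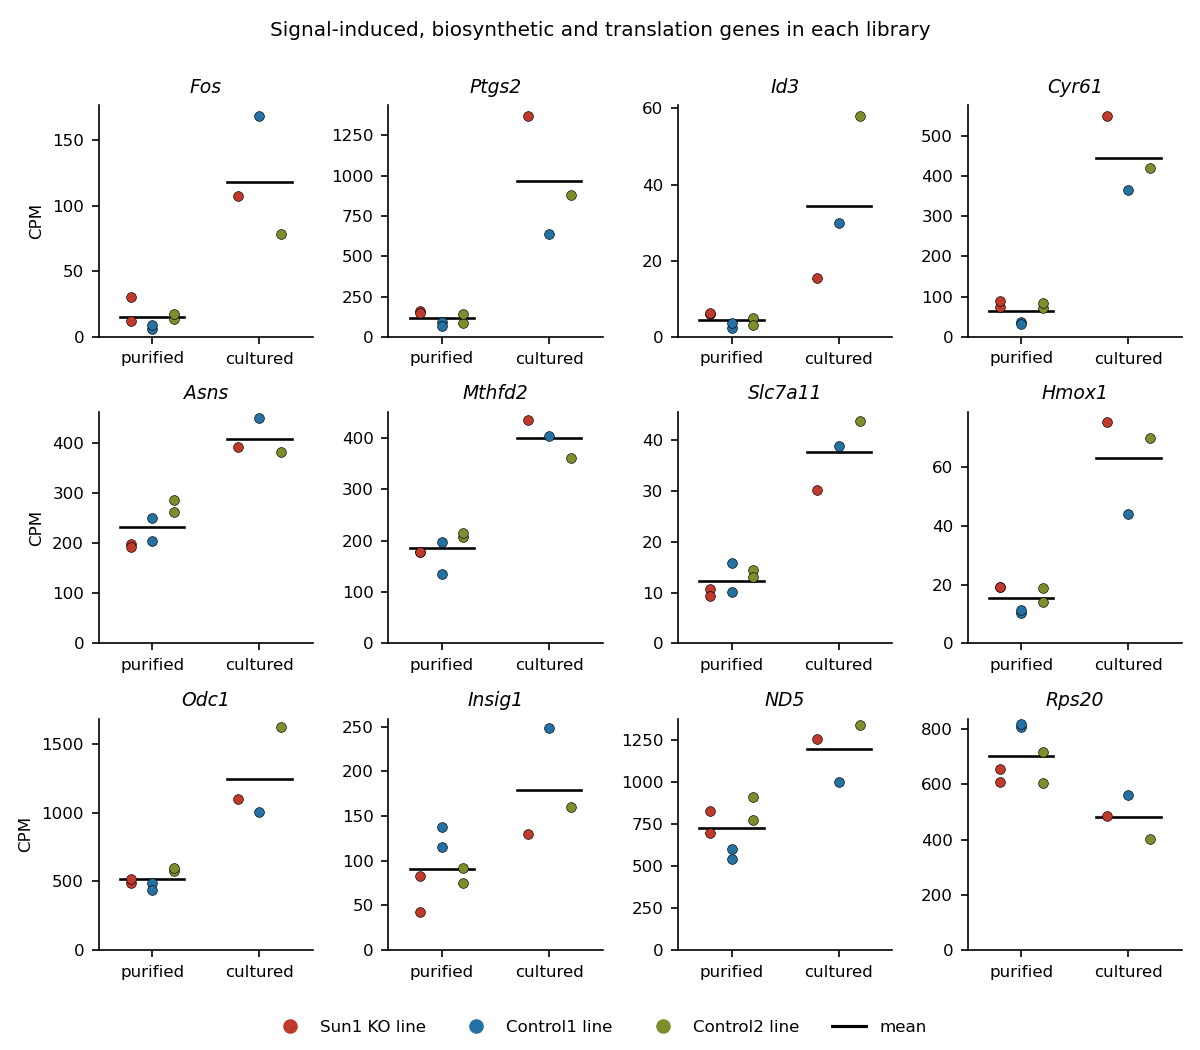
CPM (vertical axes, starting at 0) of 12 signal-induced, biosynthetic and translation genes in the 6 purified and 3 cultured libraries, with 1 point per library colored by line and a bar at each mean. Ptgs2 sits between 66.7 and 161 CPM in purified cells and between 640 and 1370 CPM in cultured cells, and Rps20 is the gene with the higher purified mean.

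Mitochondrial genes were lower and oxygen-related genes mixed. Of 13 mitochondrially encoded genes 9 were lower and none higher (median −0.33). ND5, a subunit of complex I, ranged between 542 and 909 CPM in purified cells and between 1000 and 1340 CPM in cultured cells (−0.72 ± 0.09, adjusted p = 3.47e-05), and ND2 and ND6 changed by −0.83 ± 0.12 and −0.89 ± 0.09. Mitochondrial transcripts took 1.64% ± 0.246 of the counts in purified cells (SD, n = 6) and 1.92% ± 0.24 in cultured cells (SD, n = 3), a difference of −0.273 points (exact permutation test within lines, two-sided p = 0.037, the smallest its 27 arrangements allow). Of 24 nuclear genes of oxidative phosphorylation 8 were lower and none higher (median −0.11), led by Ndufa4 (−1.20 ± 0.11), Uqcrq (−0.81 ± 0.10) and Cox5a (−0.64 ± 0.08), and of 12 genes of the tricarboxylic acid cycle 5 were lower and none higher, among them Idh3a (−0.66 ± 0.07) and citrate synthase Cs (−0.51 ± 0.07).

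Of 19 hypoxia-induced genes 9 were higher and 2 lower (median 0.59). Angptl4, an inhibitor of lipoprotein lipase, had 50.9 and 85.2 CPM in purified KO, 47.6 and 55.8 in purified Control1 and 129 and 115 in purified Control2 libraries, against 4.58, 4.66 and 8.31 CPM in cultured KO, Control1 and Control2 cells (3.76 ± 0.19, adjusted p = 1.42e-07). Control2 was highest in both settings. Kdm3a, a histone demethylase, changed by 0.69 ± 0.13, while Vegfa, the vascular growth factor, was lower, with 109 to 226 CPM in purified cells and 337 to 379 CPM in cultured cells (−1.05 ± 0.14, adjusted p = 0.000191). Of 17 glycolysis genes 5 were higher and 1 lower (median 0.24), beside the 22.1% higher and 21.4% lower of all genes. Without the cultured Control2 library 2 were higher. Hk1 changed by 0.38 ± 0.09 and Hk2, the other hexokinase, by −0.64 ± 0.16, a call that was lost without the cultured Control1 library (−0.48).

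Few cell cycle genes were called. Of 24 S phase genes 4 were lower and 1 higher (median −0.05), and of 24 G2 and M phase genes 4 were higher and 3 lower (median 0.03), each share under that of all genes tested. Cdc20, an activator of the anaphase-promoting complex, and Nusap1, a spindle protein, changed by 0.40 ± 0.08 and 0.42 ± 0.08, while Aurka, a mitotic kinase, changed by −0.43 ± 0.09. Of 7 cell cycle inhibitors 4 were higher and 2 lower, with Cdkn2c, an inhibitor of the G1 kinases, at 90.3 to 152 CPM in purified cells and 35.7 to 69.5 CPM in cultured cells (1.07 ± 0.11) and Rbl2, a retinoblastoma relative, at 0.77 ± 0.12.

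Of 13 heat shock genes 2 were higher and 5 lower, with a median of 0.05, beside the 22.1% higher and 21.4% lower of all genes. Hspa1b, an inducible Hsp70 with a near-identical copy, ranged between 27.1 and 88.6 CPM in purified cells and between 2.07 and 4.61 CPM in cultured cells (3.98 ± 0.54, adjusted p = 0.00165), whereas Hspd1, the mitochondrial chaperonin, and Hsp90aa1 changed by −0.58 ± 0.09 and −0.47 ± 0.10. Of 7 Notch genes 2 were higher, Notch1 (0.89 ± 0.17) and Nrarp (1.10 ± 0.12), and 1 was lower, Hes1 (−2.37 ± 0.43, adjusted p = 0.00485). Hes1 had 7.39 and 7.99 CPM in purified KO, 9.58 and 11.5 in purified Control1 and 3.79 and 3.05 in purified Control2 libraries, against 25.4, 29.2 and 49.1 CPM in cultured KO, Control1 and Control2 cells, and the change in Control2 minus that in Control1 was −2.37. Without the cultured Control2 library the change of Hes1 was −1.58, and with the purified libraries of a line summed Hes1 was not called.

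The remaining genes that led the lower side are less tied to one pathway. Csn3, a milk casein, ranged between 0.635 and 3.99 CPM in purified cells and between 36.2 and 106 CPM in cultured cells (−5.23 ± 0.34, adjusted p = 2.23e-05). Rnf128, a ubiquitin ligase, ranged between 3.07 and 5.09 CPM in purified cells and between 40.5 and 101 CPM in cultured cells (−4.07 ± 0.25, adjusted p = 6.08e-06). Akr1c18, a steroid dehydrogenase, ranged between 0.323 and 5.09 CPM in purified cells and between 6.36 and 33.2 CPM in cultured cells (−3.61 ± 0.35). Each of these genes was below its cultured range in all 6 purified libraries, which the rule that chose them required. Rnd1 and Cldn6, a claudin of tight junctions, changed by −3.06 ± 0.17 and −2.91 ± 0.42.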

How the data were processed

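The deposited tables hold RSEM expected counts per gene (35976 genes), 1 table per sample, which per the submitters' processing notes followed FastQC, STAR and RSEM on mm10; the authors' versions are not given in the sources used here. Expected counts were rounded to whole numbers. In R 4.3.3, edgeR 4.0.16 was fitted to the 9 libraries with setting and line as terms (TMM scaling, filterByExpr with a minimum count of 10, robust quasi-likelihood, 5 residual degrees of freedom). The 2 line tests used the setting by line interaction, with 3 residual degrees of freedom. Printed CPM are scaled over all 24 libraries.

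Named genes were Sun1, the 15 largest called changes in each direction among genes that averaged 5 CPM or more in 1 setting, did not overlap and moved 1 way in all lines, up to 4 called members with the smallest p of each of 57 gene lists, 2 members of each host list, and the 5 smallest p of each line test; others are marked as picked after their values were seen, and some that the rule chose are not reported here. Members and lists were chosen with earlier results of these data known. Promoter windows came from RefSeq (GRCm38.p6). The fits were tested on simulated data, with changes added to genes with higher counts. The main fit recovered 79.1% of 1.5-fold and 95.5% of 2-fold changes. The KO test recovered 11.9% and 46.3%, and the Control2 minus Control1 test 2.99% and 26.9%. Each of these line tests recovered 93.9% of 4-fold changes. Each fit also called 17 unchanged genes. An uncalled line difference does not show that the lines changed alike. Counting intervals and the floor of 3 counts cover counting error only. Purified replicates differed by more than sampling noise, and no sample was left out. Alternatives with limma 3.58.1 voom, DESeq2 1.42.0 and other scalings, filters and sample sets are given at the end.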

Additional observations from a re-analysis of the deposited data

Results flagged for a closer look

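Line differences were found by the tests of the difference itself. The change in KO minus the mean change of the control lines was 2.40 for Id1, 2.30 for Id3, 1.96 for Gm8995, 1.33 for Znfx1, −1.83 for Ifi27 and −3.75 for Glod5. The change in Control2 minus that in Control1 was 2.95 for Zbp1, 2.51 for Gbp7, 2.01 for Parp14, 1.88 for Apol9b, 1.84 for Ifit3, 1.81 for Stat2, 1.73 for Apol9a, 1.03 for Csf1, 0.977 for Znfx1 and −2.37 for Hes1. Csf1, a macrophage growth factor, changed by 0.16 in Control2 and −0.86 in Control1.

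Of 185 genes tabulated one by one and tried, 8 had 1 purified library far from the other 5, and chance gives about 1 in 20. Purified KO library 1 was high for Akr1c18 (5.09 CPM). Purified KO library 2 was high for Fosb (76.1 CPM) and Hspa1b (88.6 CPM). Purified Control1 library 2 was high for Medag (88.1 CPM) and Scd1 (745 CPM) and low for Cs (289 CPM). Purified Control2 library 2 was high for Hk2 (129 CPM) and Id2 (5.54 CPM). Each of these genes is described with its full range or its change, and the part of a single library in them was not tested beyond leaving it out.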

How the results depend on the processing

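Of the genes tabulated one by one 181 were called, and none of them changed direction under any alternative run. Calls were lost for 30 genes without the line block, among them Sun1, Sun2, Lum and Timp3, for 31 in the KO line alone, among them Fos, Col6a3 and Csn3, and for 16 with the purified libraries of a line summed, among them Id1, Id3, Hes1, Cd74 and Zbp1. DESeq2 size factors gave 2762 higher and 2746 lower genes, DESeq2 itself 2731 and 2694, and limma voom 2767 and 2735. Upper quartile scaling gave 3191 higher and 2227 lower, 58.9% higher against 50.8%, with a median over all genes of 0.0662. A mean of at least 5 CPM left 512 genes at least 2-fold higher and 164 lower. Without the line block 1741 were higher and 1565 lower, and in the KO line alone 1686 and 1521. Leaving out 1 library gave 2124 to 2725 higher, 2106 to 2635 lower, 930 to 1037 at least 2-fold higher and 273 to 331 at least 2-fold lower. The KO test called 306 genes with no filter, 76 with DESeq2 and 9 to 131 with 1 library left out, and the control test 364, 192 and 107 to 243; the cause was not tested. The mitochondrial difference was −0.271 points (exact permutation p = 0.0741) without the 100 highest other genes and −0.315 to −0.23 with 1 library left out, where no exact p under 0.0556 is possible. Higher type I interferon genes numbered 27 in KO alone, 5 in the control lines, 21 by voom and 4 with the purified libraries of a line summed; ribosomal protein genes numbered 2 and lower cholesterol genes 6 in KO alone. No paired analysis was possible because the cultured libraries carry no replicate number to pair by; the line was the block in the fits above, and with the purified libraries of a line summed, 2208 genes were higher and 1975 lower. Depth limits the genes with few cultured counts, whose changes are uncertain in size.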
